A study of Mus musculus with 6 samples.

Results

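The interstitial collagens Col1a1, Col1a2, Col3a1, Col5a1, Col5a2, Col6a1, Col6a2 and Col6a3, tenascin C (Tnc) and periostin (Postn) were followed in the transcriptome of sorted mouse lung endothelial cells (EC). They were taken by symbol from the expression table and make up 10 of its 12623 genes. RNA-seq libraries from infant mice (in the second week of life) were compared with libraries from young adult mice, with 3 libraries per age group. All 6 libraries came from lungs of C57BL/6N mice, for which the labels give no treatment and no altered allele. According to the study's methods, the mice were female, lungs were digested with collagenase, and live CD31+CD34+ cells lacking PTPRC, LYVE1, LY76 and PDPN were sorted by flow cytometry and their RNA amplified from small amounts. The infant libraries nevertheless held Y-linked transcripts, as given below, so they did not come from females alone. The labels do not say how many animals stand behind a library, so p-values measure the spread between these libraries only.

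Collagens are secreted as chains that wind around each other into rod-like helices. Type I collagen is built from the chains encoded by Col1a1 and Col1a2 and type III from that of Col3a1, and both assemble into the fibrils that give tissue its tensile strength. Type V collagen (Col5a1, Col5a2) sits inside these fibrils and starts their assembly, whereas type VI collagen (Col6a1, Col6a2, Col6a3) forms beaded filaments around cells. Tenascin C and periostin are matricellular proteins, which are deposited in growing or healing tissue and modulate how cells hold on to the matrix. In the lung these genes are known chiefly from fibroblasts and related mesenchymal cells, and the walls of the air sacs are still being divided by new septa in the infant. The comparison asks how the transcripts of these matrix genes differ between EC preparations from growing and from largely resting vessels.

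Expression was given as RPKM (reads per kilobase of transcript, scaled to the mapped reads of each library), rounded to 1 decimal. RPKM divides by transcript length, but how evenly reads covered long and short transcripts of this amplified RNA was not checked. Orders and shares between genes carry that limit. A gene was called when limma gave a Benjamini-Hochberg adjusted p under 0.05 over the 12458 genes tested and the difference exceeded the study's fold threshold, which is 0.81 on the log2(RPKM + 1) scale. All 10 members were tested and all 10 were called lower in young adult EC, against a background of 8.1% of all genes tested called lower and 3.33% called higher. Genes were tested if they reached 1 RPKM in at least 1 library. Col5a1, Col6a2, Col6a3 and Tnc did so only in infant libraries and could be called in this direction alone. After quantile normalization, 611 genes were called lower and 532 higher, against 1009 and 415 as deposited, and the 10 members were still called lower. For each member every infant library lay above every young adult library, which held for 27.1% of all genes tested. The median log2 fold change of the members was -3.91, against -0.071 over all genes tested. Their summed RPKM came to 1368.2, 275.4 and 891.5 for infant replicates 1 to 3, or 0.497%, 0.0977% and 0.263% of the total over genes. In young adult replicates 1 to 3 it was 10.0, 19.2 and 16, at most 0.00695% of the total. In such bulk samples, fewer cells of a type and less RNA per cell cannot be told apart.

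**Figure D1:**
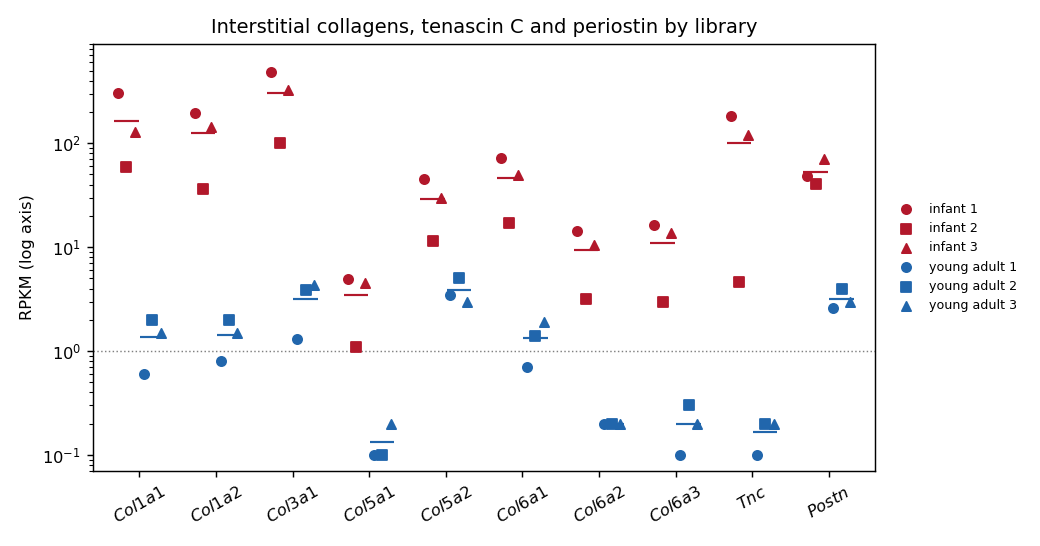
RPKM of the 10 members in each library on a log axis, with red symbols for infant and blue symbols for young adult libraries, the symbol shape giving the replicate number, short lines the group means and the dotted line 1 RPKM. Infant values run from 1.1 to 482.5 and young adult values from 0.1 to 5.1, and infant replicate 2 (red squares) is the lowest infant library for each member.

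Levels also differ by library within the infant group, which bears on every member. Infant replicate 2 was the lowest infant library for all 10 members, infant replicate 1 was the highest for 9 of them, and infant replicate 3 was the highest for Postn. Among young adult libraries, replicate 1 was the lowest or tied for the lowest for 9 members.

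By their means over the 3 libraries, the genes of types I and III were the most abundant members in infant EC, although in infant replicate 2 Postn (40.3 RPKM) lay above Col1a2. Col3a1 (chr1:45311538-45349706 in GRCm38.p6, plus strand, 51 exons) measured 482.5, 99.4 and 323.6 RPKM across infant replicates 1 to 3, compared with 1.3, 3.9 and 4.3 RPKM across young adult replicates 1 to 3. The lowest infant library was 23.1 times the highest young adult library. The log2 fold change was -6.00 ± 0.57 (SE, n = 3 per group; limma adjusted p = 0.00111), which was the largest fall among all genes tested on this scale with all libraries. Col1a1 (chr11:94936224-94953042, plus strand, 51 exons), the chain that type I collagen uses most, measured 305.6, 59.2 and 128.5 RPKM across infant libraries and 0.6, 2.0 and 1.5 RPKM across young adult ones. Infant replicate 1 thus held 2.38 times as much as infant replicate 3, the widest gap between these libraries among these chains. The log2 fold change of Col1a1 was -5.87 ± 0.53 (limma adjusted p = 0.000998). Its partner chain Col1a2 (chr6:4505618-4541543, plus strand, 52 exons) measured 197.0, 36.0 and 143.3 RPKM against 0.8, 2.0 and 1.5 RPKM, and fell by 5.42 ± 0.56 on the log2 scale (limma adjusted p = 0.00146). Young adult means of Col1a1, Col1a2 and Col3a1 were 0.831%, 1.14% and 1.05% of the infant means. On this scale the 3 genes had the largest falls of all genes tested, but the order depended on the added value and on single libraries. With a pseudocount of 0.1 the log2 fold change was -7.47 for Tnc, -6.64 for Col1a1 and -6.42 for Col3a1, which placed them 2nd, 8th and 10th among all genes tested. Without infant replicate 2 it was -6.98 for Tnc and -6.66 for Col3a1, and without infant replicate 3 it was -5.89 for Col1a1 and -5.82 for Col3a1.

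By their means, the type V genes lay at the opposite ends of the members in young adult EC. In young adult replicate 3, however, Col3a1 (4.3 RPKM) lay above Col5a2. Col5a2 (chr1:45374331-45503282, minus strand, 54 exons) lies beyond Col3a1 on the same chromosome, with 24.6 kb between the genes and 0 protein-coding genes in that gap. It measured 45.5, 11.4 and 29.4 RPKM across infant libraries and 3.5, 5.1 and 3.0 RPKM across young adult ones. Its young adult mean was 13.4% of the infant mean, the highest remaining share of any member, and its log2 fold change was -2.44 ± 0.43 (limma adjusted p = 0.00874). Col5a1 (chr2:27886381-28039510, plus strand, 66 exons) was the least abundant member in infant EC. It was also lowest by its mean in young adult EC, where its range overlapped that of Tnc. It measured 4.9, 1.1 and 4.5 RPKM across infant libraries and 0.1, 0.1 and 0.2 RPKM across young adult ones, so that the young adult values lie at the rounding step of the table. Its log2 fold change was -1.85 ± 0.37 (limma adjusted p = 0.0125), a value that the added 1 RPKM understates. The call of Col5a1 was lost without young adult replicate 1 (adjusted p = 0.0522) and without young adult replicate 2 (adjusted p = 0.0567).

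Col6a1 was the most abundant type VI chain in every library. Col6a1 (chr10:76708792-76726044, minus strand, 35 exons) measured 72.6, 17.2 and 49.0 RPKM across infant libraries and 0.7, 1.4 and 1.9 RPKM across young adult ones, with a log2 fold change of -4.16 ± 0.47 (limma adjusted p = 0.00193). Col6a2 (chr10:76595756-76623630, minus strand, 28 exons) lies 85.2 kb from it, again with 0 protein-coding genes between. Col6a2 measured 14.4, 3.2 and 10.4 RPKM across infant libraries and 0.2 RPKM in each young adult library, with a log2 fold change of -2.91 ± 0.42 (limma adjusted p = 0.00433). Col6a3 (chr1:90766860-90844001, minus strand), the longest of these chains, had a pair of transcript rows. The higher one, with 41 exons, measured 16.4, 3.0 and 13.6 RPKM across infant libraries and 0.1, 0.3 and 0.2 RPKM across young adult ones, and fell by 3.07 ± 0.49 on the log2 scale (limma adjusted p = 0.00614). The other row, with 44 exons, measured 14.0, 2.6 and 11.6 RPKM against 0.1, 0.2 and 0.2 RPKM. Within a library the ratio of Col6a1 to Col6a2 was 5.04, 5.38 and 4.71 in infant EC, although the level of either gene varied by more than 4-fold between these libraries, and 3.5, 7 and 9.5 in young adult EC, where Col6a2 was listed at 0.2 RPKM throughout.

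Tnc and Postn, the matricellular members, were the extremes of the group in infant replicate 2 when set against the other infant libraries. Tnc (chr4:63959785-64047015, minus strand, 26 exons) measured 180.7, 4.6 and 119.0 RPKM across infant libraries and 0.1, 0.2 and 0.2 RPKM across young adult ones. Infant replicate 2 stood apart from the other infant libraries, at 3.07% of their mean, and was still 23 times the highest young adult library. The log2 fold change was -5.41 ± 1.14 (limma adjusted p = 0.0154), with the widest error of any member. The call was lost without infant replicate 1 (adjusted p = 0.0513), infant replicate 3 (0.0539), young adult replicate 1 (0.0605) or young adult replicate 2 (0.0642), and without infant replicate 2 the log2 fold change was -6.98 ± 0.18 (adjusted p = 8.41e-07). A second Tnc row, a predicted RefSeq transcript that was not in the GENCODE annotation, was listed at 19.7, 0.4 and 13.5 RPKM in infant libraries and at 0 in each young adult library. It amounted to 10.9%, 8.70% and 11.3% of the main row in infant replicates 1 to 3. Postn (chr3:54359267-54391041, plus strand) had 3 nearly equal transcript rows, of which the highest has 21 exons. This row measured 48.6, 40.3 and 70.2 RPKM across infant libraries and 2.6, 4.0 and 3.0 RPKM across young adult ones. Postn had the smallest error among the members, with a log2 fold change of -3.66 ± 0.21 (limma adjusted p = 0.000245), and the smallest drop in infant replicate 2.

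**Figure D2:**
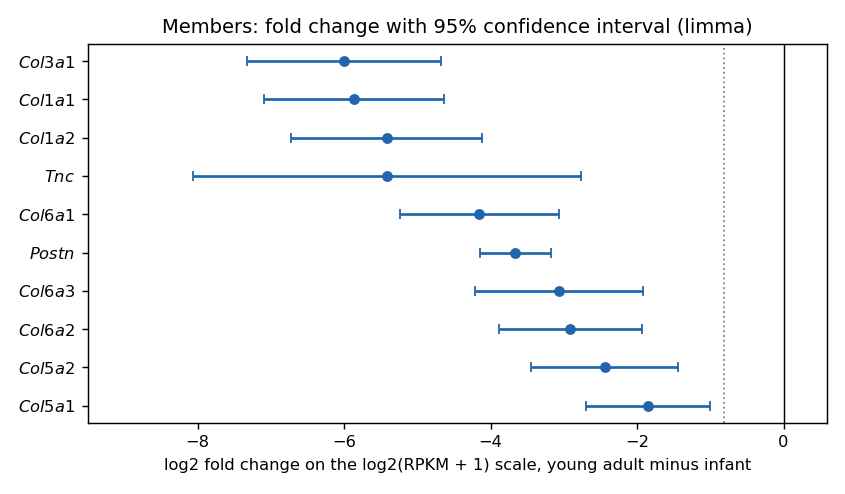
Log2 fold change of each member (young adult minus infant, on the log2(RPKM + 1) scale) with its 95% confidence interval from limma, 3 libraries per group, the dotted line marking the fold threshold for a lower level. All 10 intervals lie below 0, from Col3a1 at -6.00 to Col5a1 at -1.85, and the interval of Tnc is the widest.

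Promoter sequence was available from RefSeq (GRCm38) for 8 of the 10 members at 11 annotated transcription starts. The 100 bases before the start are shown for Col3a1, the most abundant member in infant EC, for Col5a1, the least abundant, and for the downstream start of Postn, the member that varied least between infant libraries. They are written 5′ to 3′ on the gene's strand, and capitals mark matches on either strand to the letters TATAAA (the box bound by TBP), GGGCGG (bound by SP1-type factors) and CAGAC (the short element bound by SMAD proteins). CCAAT and TGACTCA (the AP-1 element) were searched as well and have no match in these stretches.
Col3a1, chr1:45311438-45311537, plus strand: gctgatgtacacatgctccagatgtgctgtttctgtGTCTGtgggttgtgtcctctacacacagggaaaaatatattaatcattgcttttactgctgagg
Col5a1, chr2:27886325-27886424, plus strand: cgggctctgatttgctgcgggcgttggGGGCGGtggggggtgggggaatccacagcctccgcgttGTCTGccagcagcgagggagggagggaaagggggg
Postn, chr3:54361007-54361106, plus strand: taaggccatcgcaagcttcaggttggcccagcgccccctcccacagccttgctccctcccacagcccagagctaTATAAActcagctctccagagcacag
The Postn stretch carries TATAAA 26 bases before its start. The upstream Postn start, at base 54359267 of the chromosome, is not shown, and its 100 bases hold no match to any of the letters searched. Over the 250 bases before each start, TATAAA was found at 4 of the 11 member starts, in Col3a1, Postn and Tnc, against 12.4% of all 32851 windows of that length. CAGAC was found at 7 of the 11 starts, against 42.2% of all windows, and GGGCGG at 6, against 32.7%. CCAAT was found at 1 start, that of Col1a2, and TGACTCA at 1 start, that of Col6a1, against 33.8% and 4.46% of all windows. These matches describe letters only, and starts of the same gene overlap in part.

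Ordered by level, the infant means ran from Col3a1 through Col1a1, Col1a2, Tnc, Postn, Col6a1, Col5a2, Col6a3 and Col6a2 to Col5a1. For every pair of neighbours in this order the ranges over the libraries overlapped, but Col3a1 lay above Col1a1, Col1a2 above Tnc, Col6a1 above Col5a2, Col5a2 above Col6a3 and Col6a2 above Col5a1 in all 3 infant libraries. In young adult EC the order ran from Col5a2 through Postn, Col3a1, Col1a2, Col1a1, Col6a1, Col6a3, Col6a2 and Tnc to Col5a1. Here Col6a1 and Col6a3 were the only neighbours whose ranges did not overlap. Only Col5a2, Postn and Col3a1 reached 1 RPKM in all young adult libraries, while Col5a1, Col6a2, Col6a3 and Tnc did so in none.

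The make-up of the group also differed with age. Col1a1, Col1a2 and Col3a1 together supplied 72.0%, 70.7% and 66.8% of the members' summed RPKM across infant replicates 1 to 3, compared with 27.0%, 41.1% and 45.6% across young adult replicates 1 to 3. Col5a2 and Postn together supplied 6.88%, 18.8% and 11.2% in infant and 61.0%, 47.4% and 37.5% in young adult libraries. These genes form no class and had the highest young adult means of the members. A higher young adult share of this pair is therefore no independent result. The share of the type VI chains ran from 7.56% to 8.50% in infant and from 9.90% to 14.4% in young adult libraries. The age groups did not overlap in any of these shares, but the shares are parts of the same sum and move together. Young adult sums rest on values of a few RPKM that were rounded to 1 decimal.

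Ratios within a library do not depend on how libraries are scaled. The ratio of Col3a1 to its chromosomal neighbour Col5a2 was 10.6, 8.72 and 11 in infant and 0.371, 0.765 and 1.43 in young adult libraries. This is a difference of -3.76 on the log2 scale, with no overlap (exact two-sided permutation test, p = 0.1, adjusted p = 0.12 over 6 pairs). With 3 libraries against 3, this exact permutation test cannot give a p below 0.1. The ratios of Col3a1 to Postn (a log2 difference of -2.45), of Col5a2 to Postn (1.32), and of Col3a1 and Postn to Col4a1 of the basement membrane (-5.08 and -2.64) did not overlap either. For Col5a2 to Col4a1 the groups overlapped (exact permutation p = 0.2). These 6 pairs were chosen after the values were seen, because in each of the 12 pairs chosen at first a gene was under 1 RPKM in some library. Of those, Col1a1 to Col1a2 was 1.55, 1.64 and 0.897 in infant and 0.75, 1.0 and 1.0 in young adult libraries, so the chains of type I collagen stayed within a factor of 2 of each other in every library. Tnc to the fibroblast receptor gene Pdgfra was 2.07, 1.77 and 1.78 in infant and 0.5, 0.333 and 0.4 in young adult libraries. Col3a1 to Pdgfra was 5.53, 38.2 and 4.84 in infant and 6.5, 6.5 and 8.6 in young adult libraries, and young adult Pdgfra was under 1 RPKM throughout.

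Infant replicate 2 was set against the mean of infant replicates 1 and 3. Col1a1, Col1a2, Col3a1, Col5a1, Col5a2, Col6a1, Col6a2 and Col6a3 stood between 20% (Col6a3) and 30.4% (Col5a2) of that mean, Tnc at 3.07% and Postn at 67.8%. Over the 7218 genes with a mean of at least 5 RPKM in infant replicates 1 and 3, the median was 101%, the 5th percentile 56.4% and the 95th percentile 151%. In all, 108 of these genes (1.5%) stood under 25%, among them 4 of the 9 members that reach this mean. Without infant replicate 2 all 10 members were called, their median log2 fold change was -4.29, and the errors were smaller, for example -2.33 ± 0.12 for Col5a1 (adjusted p = 1.18e-05) and -6.66 ± 0.35 for Col3a1 (adjusted p = 1.24e-05).

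**Figure D3:**
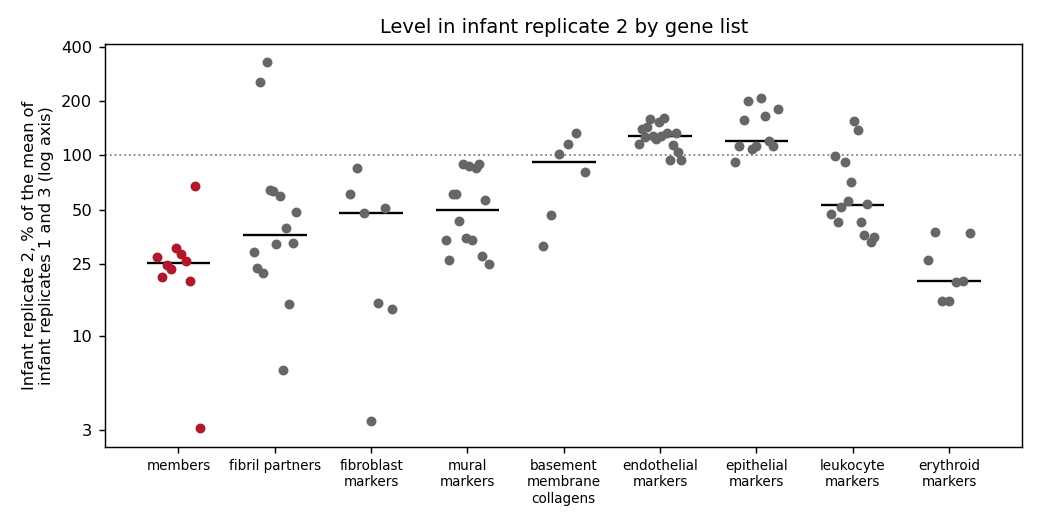
RPKM in infant replicate 2 as a percentage of the mean of infant replicates 1 and 3, on a log axis, with 1 point per tested gene, the members in red, black lines for list medians and a dotted line at 100%. The members have a median of 25.2% and endothelial markers one of 128%, and Tnc, at 3.07%, is the lowest member.

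Markers of fibroblasts and mural cells were mostly called lower, as the members were, while those of other cell types differed by list. Of 15 listed fibroblast markers 7 were tested, and all 7 were called lower in young adult EC. Their summed RPKM ranged from 113.6 to 344.8 in infant and from 4.7 to 8.9 in young adult libraries. Pdgfra, Tcf21, Pdgfrl, Fgf10 and Wnt5a stayed under 1 RPKM in every young adult library. They passed the filter through infant libraries alone, so they could be called in this direction only. Without infant replicate 1 or young adult replicate 2, 5 of the 7 were called. They were led by Mfap4 and Pdgfra, none was at 0 in a whole age group, and Pdgfra measured 87.2, 2.6 and 66.8 RPKM across infant libraries and 0.2, 0.6 and 0.5 RPKM across young adult ones. The call of Pdgfra (limma adjusted p = 0.0256) was lost on leaving out any library other than infant replicate 2 (adjusted p from 0.0706 to 0.0881). Of 14 mural markers (pericytes and smooth muscle), led by Acta2 and Tagln, 13 were called lower, with sums of 101.5 to 283.2 RPKM and 14.8 to 21.7 RPKM. The same limit holds for Cspg4, Cnn1, Des, Notch3, Lmod1 and Abcc9, which stayed under 1 RPKM in every young adult library. Pdgfrb, the pericyte receptor gene, measured 69.4, 17.4 and 57.1 RPKM against 1.2, 2.2 and 1.9 RPKM. In infant replicate 2, fibroblast markers had a median of 47.7% (from 3.38% for Pdgfra to 84.6%) of the other infant libraries. Mural markers had one of 49.9% (from 25% to 89.4%), erythroid markers one of 20% and leukocyte markers one of 52.7%. The medians of epithelial, platelet and mesothelial markers were 120%, 211% and 254%. Dcn and Lum, on the list of fibril partners, stood at 255% and 327%. The part of these cell types in the levels of the members was not tested.

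Endothelial markers were abundant at both ages, with all 16 at 1 RPKM or more in each young adult library and sums of 3557 to 5119 RPKM across infant libraries and 5434 to 5908 RPKM across young adult ones, and with 2 called higher (6 without infant replicate 2). Of the sorted antigens, Pecam1 (CD31) measured 309.8, 512.6 and 330.4 RPKM across infant libraries and 573.7, 657.8 and 581.2 RPKM across young adult ones, and Cd34 449.4, 500.6 and 422.7 RPKM against 254.4, 278.3 and 354.8 RPKM. Ptprc, which the sort excluded, measured 4.2, 3.0 and 7.0 RPKM against 0.2, 1.0 and 1.8 RPKM, and its call (limma adjusted p = 0.0182) was lost without infant replicate 1 (adjusted p = 0.0585), infant replicate 3 (0.058), young adult replicate 1 (0.056) or young adult replicate 2 (0.0671). Summed epithelial markers, led by Sftpc and Scgb1a1, ranged from 6522 to 11404 RPKM in infant libraries and from 1847 to 8422 RPKM in young adult EC, with 4 of 11 called lower and 1 higher. Leaving out infant replicate 3 or young adult replicate 2 left none of these 11 called by limma, leaving out infant replicate 1 left 2, and with all libraries 6 had an unadjusted p under 0.05. Globin genes took 3.41% to 23.5% of the total in infant and 0.307% to 0.487% in young adult libraries, and all 7 erythroid markers were called lower. Y-linked Ddx3y measured 20.6, 16.5 and 21.9 RPKM in infant libraries and was listed at 0 in each young adult library, so age and the sex of the animals cannot be told apart here. The part of these cells and of sex in the members' levels was not tested.

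Genes for making and processing collagen were called in both directions. Of 21 tested, 7 were lower and 1 higher in young adult EC, with a median log2 fold change of -0.19. Pcolce, which speeds the removal of the carboxyl propeptide from procollagen, measured 24.0, 9.4 and 29.5 RPKM against 1.6, 2.8 and 3.2 RPKM and fell by 2.53 ± 0.38 on the log2 scale (limma adjusted p = 0.0051). Serpinh1, the collagen chaperone, was the most abundant of the list at 386.8 ± 80.4 RPKM across infant libraries and 184.6 ± 38.1 RPKM in young adult EC (SD, n = 3), a log2 fold change of -1.06 ± 0.22 (limma adjusted p = 0.014). Its call was lost without infant replicate 1 (adjusted p = 0.0525) or young adult replicate 1 (0.0551). Adamts2, which removes the amino propeptide, had a log2 fold change of -1.97 ± 0.44, and its call was lost without infant replicate 1 (adjusted p = 0.0679), infant replicate 3 (0.0518), young adult replicate 1 (0.0667) or young adult replicate 2 (0.0732). P4ha2, a prolyl hydroxylase subunit that stabilises the collagen helix, was the gene called higher, at 6.7, 7.1 and 6.4 RPKM across infant libraries and 15.6, 16.3 and 15.5 RPKM across young adult ones (log2 fold change 1.12 ± 0.09, limma adjusted p = 0.000642). Ppib, a prolyl isomerase of the secretory pathway, had a log2 fold change of -0.026 that was not called and that turned positive with libraries rescaled to the same total. The 8 calls of the list dropped to 3 without infant replicate 1 or young adult replicate 1, to 4 without infant replicate 3 or young adult replicate 2, and to 5 without young adult replicate 3.

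Among fibril partners and matricellular genes, 12 of the 14 tested were called lower and the others were not called. Their median log2 fold change was -2.19. Tgfbi, a secreted adhesion protein of the same family as periostin, measured 402.2, 23.8 and 333.6 RPKM across infant libraries and 1.9, 4.3 and 4.6 RPKM across young adult ones, with a log2 fold change of -5.08 ± 0.96 (limma adjusted p = 0.0109). Like Tnc it was far lower in infant replicate 2, at 6.47% of the other infant libraries, and its call was lost without young adult replicate 1 (adjusted p = 0.0515). Aspn, a small leucine-rich proteoglycan, measured 194.5, 54.4 and 179.1 RPKM against 3.7, 3.9 and 3.1 RPKM, a log2 fold change of -4.78 ± 0.43. Sparc, a collagen-binding protein that EC are known to make, remained abundant, at 282.0, 312.8 and 250.2 RPKM in young adult against 968.3, 618.4 and 1109.5 RPKM in infant libraries (log2 fold change -1.63 ± 0.24, limma adjusted p = 0.00434). The small proteoglycan genes Dcn and Lum, singled out after their values were seen, were highest in infant replicate 2, at 19.9 and 14.4 RPKM against at most 8.0 and 4.7 RPKM in the other infant libraries. Dcn was called lower (limma adjusted p = 0.0285), and the call was lost without young adult replicate 1 (adjusted p = 0.1), young adult replicate 2 (0.0787) or young adult replicate 3 (0.058). Without young adult replicate 1, 7 of the 14 were called.

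Of 29 further interstitial collagen genes on the list 5 were tested, and 1 of these was called. Col14a1, a collagen on the surface of fibrils, measured 10.2, 3.0 and 5.1 RPKM across infant libraries and 0.5, 0.9 and 0.6 RPKM across young adult ones (log2 fold change -1.97 ± 0.33, limma adjusted p = 0.00748). Col12a1, a collagen of the same class, had 2.4, 3.0 and 1.9 RPKM across infant libraries and 3.1, 4.1 and 5.2 RPKM across young adult ones and was not called (log2 fold change 0.57, limma adjusted p = 0.0547). Col16a1 (2.3, 0.2 and 1.7 RPKM), Col24a1 (3.0, 0 and 1.6 RPKM) and Col27a1 (1.1, 0.2 and 1.0 RPKM in infant libraries) were not called either. In young adult libraries Col24a1 and Col27a1 were listed at 0 and Col16a1 at no more than 0.1 RPKM. All 5 had an unadjusted limma p under 0.05, with Col12a1 in the opposite direction. Without infant replicate 2, 4 of the 5 were called. Among 11 tested receptors, 3 were called lower and 1 higher. Ddr2, a receptor tyrosine kinase activated by fibrillar collagen, measured 25.6, 4.4 and 24.9 RPKM against 1.1, 1.2 and 1.6 RPKM, with a log2 fold change of -2.76 ± 0.56, and its call was lost without young adult replicate 1 (adjusted p = 0.0567) or young adult replicate 2 (0.06). Itga9, an integrin chain that binds tenascin C, was called (log2 fold change -1.60, limma adjusted p = 0.0358), but the call was lost on leaving out any library other than infant replicate 2 (adjusted p from 0.0981 to 0.121). Itga1, the collagen-binding integrin chain of many EC, was higher in young adult EC, at 80.8, 86.6 and 69.5 RPKM against 39.0, 45.0 and 34.9 RPKM (log2 fold change 0.98 ± 0.13, limma adjusted p = 0.00339). Its partner Itgb1 had a log2 fold change of -0.48 and stayed under the fold threshold. Without young adult replicate 1 or 2 the receptor list had 2 calls.

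The basement membrane collagens, which EC are known to make themselves, had smaller differences on the log2(RPKM + 1) scale. A lower level was called for 4 of the 6 tested, and the median of their log2 fold changes was -1.16. Col4a1 measured 201.8, 184.8 and 159.8 RPKM across infant libraries and 64.9, 66.3 and 75.4 RPKM across young adult ones, a log2 fold change of -1.39 ± 0.13 (limma adjusted p = 0.00102), and Col4a2 one of -1.34 ± 0.13. Infant replicate 2 stood at 102% of the other infant libraries for Col4a1 and at 116% for Col4a2, against at most 67.8% for the members. Col15a1 and Col18a1 of the same list, which were not called and measured at most 2.6 RPKM in any library, stood at 31.6% and 46.5%. The ratio of Col1a1 to Col4a1 was 1.51, 0.320 and 0.804 in infant and 0.00924, 0.0302 and 0.0199 in young adult libraries.

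**Figure D4:**
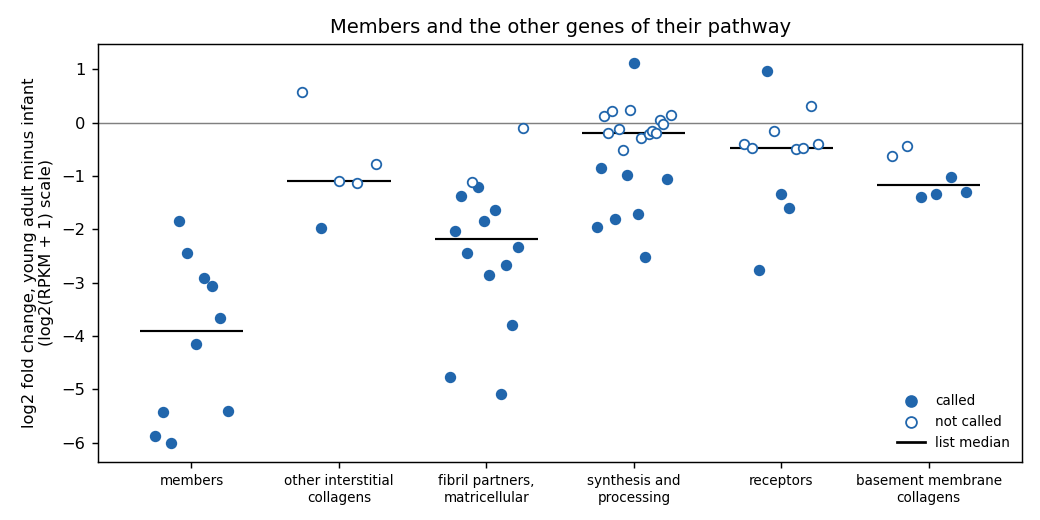
Log2 fold change (young adult minus infant, log2(RPKM + 1) scale) of every tested gene of 6 lists, with filled points for called genes, open points for genes not called and black lines for list medians. All 10 members lie at -1.85 or below, whereas the synthesis and processing list has a median of -0.19 and the basement membrane collagens one of -1.16. In every list this scale understates changes of genes with low RPKM.

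Genes with the profile most like a member were found by the root mean square difference between profiles of log2(RPKM + 1) over the 6 libraries, each centred on its own mean. Col1a1, Col1a2 and Col3a1 were each other's closest genes, at 0.28 for Col1a1 and Col3a1, followed by Mfap4 at 0.61 for Col1a1 and by Aspn at 0.43 for Col1a2. Col6a1 was closest to Pdgfrb (0.19), followed by Nrep and Dkk3. Col6a2 was closest to Lpar1 (0.11) and Col6a3 to Igf1 (0.09), and Col5a2 to Gm21451 (0.18), followed by Mmp2 and Tbx4. Col5a1 was closest to the mitotic genes Kif23 (0.05) and Mki67 (0.07), with low levels throughout. Tnc and Postn had no other member among their 3 closest genes, and neither had Col5a1, Col5a2, Col6a1 and Col6a3. Tnc was closest to Egfem1 (0.31), Tgfbi (0.43) and Prss35 (0.44), and Egfem1 shared its shape, at 98.5, 3.0 and 77.9 RPKM in infant libraries. Postn was closest to Cyp2e1 (0.22), Gucy1a3 (0.30) and Dpt (0.31). The points of these profiles share library and age group, and the measure is a description.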

How the data were processed

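The deposited table held RPKM values, computed by the authors from paired-end HiSeq2000 reads that were aligned to mm10 with STAR and assigned to RefSeq transcripts. The authors tested genes with DESeq2. The STAR version and the program behind the RPKM are not given in the sources used here, and 0 further value columns were present. Read counts were not analysed here. The study's methods give an average transcriptome coverage but no reads per library, and single values therefore carry no counting error. RPKM is relative to all mapped reads, and abundant globin transcripts lower all other values of a library.

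Of 17241 transcript rows, the row with the highest mean per gene was kept (12623 genes). Symbols turned into dates by a spreadsheet (24 rows) were restored by accession. log2(RPKM + 1) of the 12458 genes with at least 1 RPKM in at least 1 library, the filter of the study, was fitted with limma 3.58.1 in R 4.3.3 (age group as the only term, eBayes with intensity trend). A pseudocount of 1 understates changes of low genes. A gene that reached 1 RPKM in a single age group passed the filter through that group and could be called in that direction alone. The script was tested on simulated data. Ratios were compared with exact two-sided permutation tests (scipy 1.17.1). Positions are from RefSeq on GRCm38.p6, whose coordinates equal those of mm10. Exons are from GENCODE, matched by RefSeq accession for 13 of 14 transcript rows of the members.

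The members and gene lists were chosen with earlier results of these data known. Named were all members, and from each pathway list the 2 called genes with the largest change, the 2 most abundant genes and genes called higher, and from the marker lists the sort antigens, Ptprc, Pdgfra, Pdgfrb and the 2 most abundant genes, the latter only for the lists described. Of 4 platelet markers, limma called 0 at an adjusted p and 0 had an unadjusted p under 0.05, although 1 was called higher without infant replicate 2. Of 2 mesothelial markers 1 was called lower. Of 14 leukocyte markers 6 were called lower. Leaving out 1 library gave 3 calls for infant replicate 1 or 3, 0 for young adult replicate 1, 1 for young adult replicate 2 and 4 for young adult replicate 3, while 10 had an unadjusted p under 0.05 with all libraries. Alternatives were other pseudocounts, filters, scalings and limma settings, all transcript rows, a replicate block and leaving out each library. The 6 tested ratio pairs were added after seeing the data.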

Additional observations from a re-analysis of the deposited data

How the results depend on the processing

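The direction of every member was the same under every alternative. As every infant library lay above every young adult one, pseudocounts, limma settings and leaving out a library could not turn it. Counting transcript rows fitted on their own, 203 alternative values of single members kept the call and 11 lost it. With limma's treat, which tests against the fold threshold itself, 6 of the 10 members were called, and Col5a1, Col5a2, Col6a3 and Tnc were not. A pseudocount of 5 ended the call of Col5a1. Over all genes, 1424 were called, 578 with a pseudocount of 5, 176 with treat, and between 843 and 1874 on leaving out 1 library. Quantile normalization moved the median over all genes from -0.071 to 0.044 on the log2 scale, while the members ranged from -6.00 to -1.85 before it.

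Called genes of the synthesis and processing list (8) numbered 4 with a pseudocount of 5, 5 after quantile normalization, 0 with treat and 3 to 8 on leaving out 1 library. Fibril partners (12) numbered 4 with treat and 7 to 12 on leaving out 1 library. Receptors (4) numbered 2 with a pseudocount of 5, 0 with treat and 2 to 4 on leaving out 1 library. Basement membrane collagens (4) numbered 2 with a pseudocount of 5, 0 with treat and 4 to 5 on leaving out 1 library. Other interstitial collagens (1) numbered 3 with a pseudocount of 0.1, 2 with libraries rescaled to the same total or without globin genes, 4 with array weights, 0 with treat and 1 to 4 on leaving out 1 library. The log2 fold change of Ppib was 0.063 with libraries rescaled to the same total and ran from -0.089 to 0.075 on leaving out 1 library. At an unadjusted p under 0.05, treat had 5, 10, 2, 3 and 1 genes of these lists in the order given. The causes were not tested.

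The labels do not say whether the replicate numbers pair the samples. Deviations of same-numbered libraries correlated at 0.028, -0.11 and -0.021, and none of the infant libraries correlated best with its own number. With 3 libraries per group this cannot exclude a pairing. With a replicate block all 10 members and 1371 genes were called, and among the members and the pathway genes named, Itga9 lost its call (adjusted p = 0.0505) and Lum gained one (adjusted p = 0.0299). For the 6 ratios the direction was the same under all 54 alternatives, but leaving out a library could not turn it where the groups did not overlap.

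Rounding to 1 decimal and the unknown depth of single libraries limit young adult values of Col5a1, Col6a2, Col6a3 and Tnc, all under 1 RPKM.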
